A study of Mus musculus with 6 samples.

Results

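Heat shock factors and chaperones were followed as a set of 35 mouse genes among the 27179 gene identifiers counted by RNA-seq in A20 cells. The members were given as a list of gene symbols and comprise 2 heat shock factors together with the cytosolic and mitochondrial chaperones and their partners. A20 is a B cell lymphoma line of BALB/C origin. The 3 groups had 2 biological replicates each and were wild-type A20, A20 carrying the TETact-v3 activator with a non-targeting control sgRNA, and A20 carrying TETact-v3 with an sgRNA against the Cd4 promoter. Both transduced groups carry every part of the activator, delivered by lentivirus and selected by sorting for fluorescent reporters, and were collected a week after the sgRNA was introduced. In TETact-v3, a dCas9 with SunTag (GCN4) epitopes recruits the catalytic domain of TET1, an enzyme that starts DNA demethylation, and MS2 aptamers in the sgRNA recruit MCP fused to p65-hsf1. The activator therefore carries a piece of a heat shock factor, which the paper lists among its activator domains. The comparisons show which genes of the heat shock system differed between cells with and without the activator. Whether it acts at heat shock elements was not tested. Wild-type A20 were not transduced, so the activator, the lentiviruses, the sorting and the culture of the derived lines cannot be told apart in either comparison with wild type.

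As background, heat shock factors such as HSF1 form trimers that bind inverted repeats of nGAAn, the heat shock element, in the promoters of chaperone genes when misfolded proteins accumulate. HSP40 proteins deliver unfolded clients to HSP70, nucleotide exchange factors of the BAG, HSPBP1 and HSP110 families reset HSP70, and HSP90 with its co-chaperones matures kinases and steroid receptors. HSP60 with HSP10, and mitochondrial HSP70, do the folding inside mitochondria, and small heat shock proteins hold unfolded proteins without ATP.

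Promoter letters are shown first for the members on which the values turn. Promoter windows, from 250 bases before to 50 bases after the start in RefSeq on GRCm38.p6, were at hand for 28 of the 35 members, and not for Hsf1, Hspa8, Hsp90aa1, Hsp90ab1, St13, Hspa9 and Cryab. Each sequence below reads 5′ to 3′ on the strand of its gene and ends at the base before a start annotated in that table, with GAANNTTC or TTCNNGAA in capitals, the letters of 2 facing units of the element (each form is its own reverse complement, so both strands are covered). Hspb1 (chr5:135887669-135887918, plus strand) was at 0 counts in wild type and counted in all TETact-v3 libraries. The stress-inducible pair Hspa1a (chr17:34972157-34972406, minus strand) and Hspa1b (chr17:34959239-34959488, minus strand) stayed near 0 in all libraries. Fkbp4 (chr6:128438657-128438906, minus strand) and Hsf2 (chr10:57486135-57486384, plus strand) were higher in both TETact-v3 groups, with and without the letters in these windows respectively. The Hsf2 window belongs to a start inside the gene's annotated span, which begins further upstream. Hspe1 and Hspd1 lie head to head, and the 215 bases before Hspe1 (chr1:55087933-55088147, shown on the plus strand, the strand of Hspe1) hold the overlapping 3-unit form. This stretch lies within the annotated span of Hspd1, which has 2 windows: the inner one holds these letters and the outer one holds 0 matches.
Hspb1: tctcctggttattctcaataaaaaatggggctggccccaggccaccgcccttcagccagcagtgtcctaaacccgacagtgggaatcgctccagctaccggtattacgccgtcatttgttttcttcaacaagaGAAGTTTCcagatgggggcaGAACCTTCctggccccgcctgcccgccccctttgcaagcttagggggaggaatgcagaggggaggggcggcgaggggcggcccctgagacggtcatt
Hspa1a: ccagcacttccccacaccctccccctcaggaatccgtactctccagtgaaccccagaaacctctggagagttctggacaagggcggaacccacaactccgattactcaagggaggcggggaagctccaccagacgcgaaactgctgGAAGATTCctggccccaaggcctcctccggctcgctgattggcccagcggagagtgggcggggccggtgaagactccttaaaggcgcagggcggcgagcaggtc
Hspa1b: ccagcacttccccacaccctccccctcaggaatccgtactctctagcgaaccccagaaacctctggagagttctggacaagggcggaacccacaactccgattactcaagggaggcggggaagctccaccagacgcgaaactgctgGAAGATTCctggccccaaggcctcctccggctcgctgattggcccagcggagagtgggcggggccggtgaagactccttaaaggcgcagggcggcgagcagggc
Fkbp4: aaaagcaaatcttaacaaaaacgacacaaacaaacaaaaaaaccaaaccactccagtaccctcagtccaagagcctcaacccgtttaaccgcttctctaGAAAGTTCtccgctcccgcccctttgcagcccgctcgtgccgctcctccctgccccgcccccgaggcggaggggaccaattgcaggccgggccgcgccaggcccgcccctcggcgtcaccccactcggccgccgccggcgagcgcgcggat
Hsf2: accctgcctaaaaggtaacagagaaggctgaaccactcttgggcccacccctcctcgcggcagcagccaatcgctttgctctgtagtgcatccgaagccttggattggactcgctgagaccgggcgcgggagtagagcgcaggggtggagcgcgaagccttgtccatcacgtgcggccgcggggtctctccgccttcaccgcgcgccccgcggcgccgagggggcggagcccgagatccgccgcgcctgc
Hspe1 to Hspd1: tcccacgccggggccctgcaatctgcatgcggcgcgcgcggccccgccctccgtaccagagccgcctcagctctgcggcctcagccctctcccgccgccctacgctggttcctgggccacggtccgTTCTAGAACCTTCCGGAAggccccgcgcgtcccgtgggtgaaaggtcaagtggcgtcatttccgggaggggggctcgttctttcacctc
In the Hspb1 window the matches begin 117 and 97 bases before the start, and in Hspa1a and Hspa1b 104 bases before it. The windows of Hspa1a and Hspa1b were identical at 247 of 250 bases (98.8%). The stretch between Hspe1 and Hspd1 had 3 matches of the 2-unit form and 2 of the 3-unit form (the same letters followed, after any 2 bases, by one more unit in the alternating orientation, both strands, so that each 3-unit match holds 2 of the shorter ones). The 2-unit letters were found in 14 of the 28 members (50.0%), against 17.0% of the 27025 genes with a window of the same length. The 3-unit letters were found in 5 members (17.9%), namely Hsph1, Chordc1, Dnajb6, Hspd1 and Hspe1, against 0.662% of all genes. Among the 7 members with a window that were higher than wild type in at least 1 TETact-v3 group, 4 held the 2-unit letters and 0 the 3-unit letters. The reference was every gene with a window, expressed here or not, and was not matched to the members for CpG content. Members also had a median of 25.5 CpG sites per window, against 7 over all genes. In their whole windows, which reach 50 bases past the start, Hspb1 had 14, Fkbp4 33 and Hsf2 34. A match of letters is a description and not a bound site.

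Library totals ran from 23194920 counts (wild type replicate 2) to 121623410 counts (control sgRNA replicate 1), and both control sgRNA libraries were deeper than the other 4. Levels are given as CPM, the counts of a gene scaled to a common library size (the tested genes' counts after TMM scaling), and a floor of 3 counts lay between 0.0270 CPM in the deepest and 0.140 CPM in the shallowest library. The Cd4 sgRNA libraries held 30959 and 40422 counts of Cd4, against at most 127 in any other library, which fits their labels. All 7 B cell markers examined (among them Cd79a, Ms4a1 and Pax5) were counted in every library, and their summed level was 7158 and 7207 CPM in wild type, 4572 and 7332 CPM with control sgRNA, and 4358 and 3816 CPM with Cd4 sgRNA, while Cd3e and Cd14 were at 0 throughout and the T cell and myeloid markers summed to at most 8.91 and 6.996 CPM. The B cell sum was lowest with Cd4 sgRNA. Cd74 made up most of it, at 5468 of 7158 CPM in wild type replicate 1. Single markers differed in their order. Ebf1 was lowest with Cd4 sgRNA (15.2 and 14.0 CPM), but Pax5 with control sgRNA (65.4 and 56.1 CPM). The part of this sum in the results was not tested. The replicates with control sgRNA differed from each other. Their summed CPM over 10 hypoxia targets was 1189 and 1882, against 589 to 666 in the other 4 libraries, and mitochondrially encoded genes took 6.63% and 11.5% of counts, against 2.65% and 2.69% in wild type and 5.96% and 6.90% with Cd4 sgRNA. Whether these differences had a part in any value below was not tested.

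Of the 35 members, 31 passed the filter on low counts. The other 4 were Hspa1a and Hspa1b, with at most 4 counts in any library, Cryab with at most 1, and Hspb8 with 0 everywhere. The 35 members together made up between 1.26% and 1.56% of all counts in a library. In bulk RNA, fewer cells expressing a gene and less RNA per cell cannot be told apart. Per length (CPM per kilobase of the deposited exon length), wild-type A20 had its highest member level in Hsp90ab1, the constitutive cytosolic HSP90, at 1955, followed by Hspa8, the constitutive HSP70, at 1021. Stip1 (345), Hspd1 (278), Hsp90aa1 (275), Hspe1 (264) and Fkbp4 (237) came next. Hsf1 stood at 30.1 CPM per kilobase and Hsf2 at 6.003, and the lowest tested members above 0 were Dnajb4 at 2.54 and Hspa2 at 1.60. Hsp90ab1 and Hspa8 alone gave 35.4% and 15.5% of the members' summed CPM in wild type. Hspa1a, Hspa1b and the small heat shock protein genes Hspb1, Hspb8 and Cryab were thus at or near 0 in wild type, beside an abundant constitutive set.

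Against wild type, 7 members were higher with control sgRNA and 6 with Cd4 sgRNA, and 0 members were lower in either comparison at an adjusted p under 0.05 (edgeR's quasi-likelihood test). Members higher in both, 5 in number, were Hsf2, Dnajb4, Bag3, Fkbp4 and Hspb1, so they comprised a heat shock factor, an HSP40, an HSP70 exchange factor, an HSP90 co-chaperone and a small heat shock protein. Hspa2 and Hspa8 passed the threshold with control sgRNA but missed it with Cd4 sgRNA, and Hspbp1 the reverse, and for none of these 3 did the TETact-v3 groups differ from each other at that threshold. Both comparisons use the same wild-type libraries and are not independent. The share of all tested genes higher in both is not given here, so the 5 cannot be read as particular to the members. With control sgRNA the 7 calls are 22.6% of the 31 tested members, where 15.7% of all 12430 tested genes were higher and 13.6% lower. With Cd4 sgRNA the 6 calls are 19.4%, where 11.3% of all tested genes were higher and 11.8% lower. Hspb1 passed the filter only through the groups in which it was counted, so its call was bound to be a difference. The members' median log2 fold change was 0.26 with control sgRNA and 0.20 with Cd4 sgRNA, against 0.00 in both cases over all tested genes, and 23 of 31 members were above 0 in each. Both libraries lay above both wild-type libraries for 19 of the 31 members with control sgRNA (33.3% of all tested genes) and for 21 with Cd4 sgRNA (40.4% of all), and below them for 4 (33.8% of all) and 7 (39.3% of all). DESeq2 and voomLmFit of limma also called 0 members lower, and 15 members with control sgRNA and 11 with Cd4 sgRNA had an unadjusted p under 0.05 in either direction in edgeR's test, against 43.1% and 39.3% of all tested genes. Fewer members were called higher with control sgRNA when either wild-type library was left out. More were called, some of them lower, when either control sgRNA library was left out. With Cd4 sgRNA, leaving out any wild-type or Cd4 sgRNA library gave fewer calls. Leaving out either control sgRNA library gave more, some of them lower. Shares of all tested genes called in these fits are not given here, so the shifts cannot be read as particular to the members. Hsf2 kept its call with control sgRNA, and Dnajb4 its call with Cd4 sgRNA, whichever 1 library was left out.

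**Figure D1:**
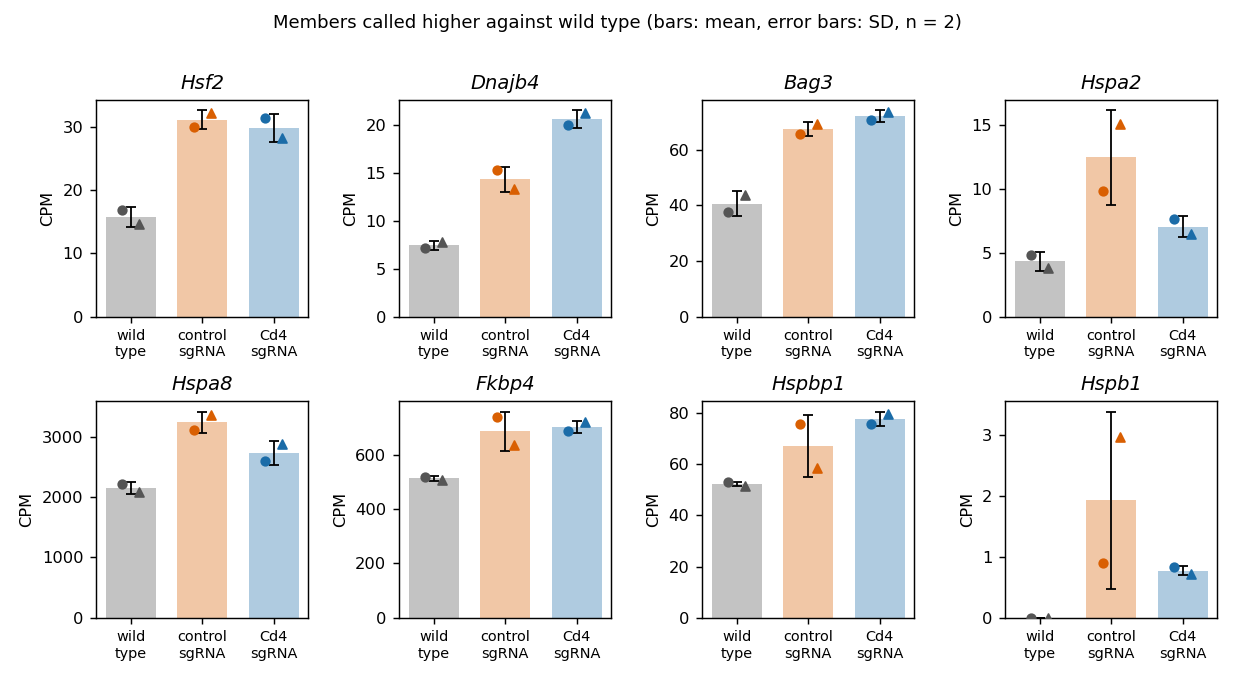
CPM (vertical axes, each from 0) of the 8 members that were higher than wild type in at least 1 comparison, in wild type, control sgRNA and Cd4 sgRNA cells. Bars are means, error bars the SD of 2 replicates, circles replicate 1 and triangles replicate 2. All TETact-v3 points lie above both wild-type points in each panel, and the control sgRNA points of Hspb1 (0.900 and 2.95 CPM) and Hspa2 (9.83 and 15.0 CPM) lie far apart.

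Of the heat shock factors, Hsf2 rose in both comparisons with wild type and Hsf1 passed the threshold in neither. Hsf1 (chr15:76477362-76501155), the main factor of the heat shock response, whose name the activator's hsf1 domain shares, was at 59.9 and 61.5 CPM in wild type, 64.9 and 58.3 CPM with control sgRNA, and 51.5 and 55.4 CPM with Cd4 sgRNA. The control sgRNA libraries enclosed the wild-type values, and the Cd4 sgRNA libraries lay below the other 4. The log2 fold change against wild type was 0.02 with control sgRNA (SE, the standard error, 0.0952, adjusted p = 0.888 in edgeR's quasi-likelihood test) and -0.18 with Cd4 sgRNA (SE 0.0959, adjusted p = 0.208 in edgeR's test). Hsf1 was called lower with Cd4 sgRNA when wild type and Cd4 sgRNA were fitted without control sgRNA (adjusted p = 0.00958 in edgeR's test) and when control sgRNA replicate 1 or 2 was left out. Counts are per whole gene, so reads from an hsf1 domain in the transgene cannot be told apart from those of the endogenous gene where the letters are shared. Hsf2 (chr10:57483766-57513143), a second factor that can join HSF1 in mixed trimers, was at 16.8 and 14.7 CPM in wild type, 30.0 and 32.2 CPM with control sgRNA, and 31.4 and 28.2 CPM with Cd4 sgRNA. All 4 TETact-v3 libraries lay close together and above both wild-type libraries, 1.97-fold on average with control sgRNA and 1.89-fold with Cd4 sgRNA. Its log2 fold change was 0.98 with control sgRNA (SE 0.118, adjusted p = 0.00328 in edgeR's test) and 0.92 with Cd4 sgRNA (SE 0.119, adjusted p = 0.00530 in edgeR's test). The latter call was lost without either wild-type or either Cd4 sgRNA library, where its adjusted p in edgeR's test reached 0.0637. Between the TETact-v3 groups the log2 fold change of Hsf2, Cd4 sgRNA over control sgRNA, was -0.06 (SE 0.115, adjusted p = 0.749 in edgeR's test). None of Hsf2's transcript was shared at the read length of 66 bases with a transcript of another gene.

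Among the HSP70 genes, Hspa8 and Hspa2 rose with control sgRNA, while the stress-inducible pair stayed at or near the floor in all groups. Hspa1a was counted 0 and 1 times in wild type, 3 and 0 times with control sgRNA, and 0 and 4 times with Cd4 sgRNA. Hspa1b was counted 1 and 1 times, 4 and 3 times, and 1 and 1 times in the same order. Both were at or near the floor of 3 counts in every library, and 63.4% and 58.0% of their 66-base windows were shared with transcripts of other genes, mostly with each other. Hspa8 (chr9:40801276-40805202), the constitutive HSP70 called HSC70, was at 2217 and 2080 CPM in wild type, 3115 and 3363 CPM with control sgRNA, and 2591 and 2873 CPM with Cd4 sgRNA. The 3 groups did not overlap, with Cd4 sgRNA between the other two. The log2 fold change of Hspa8 was 0.59 with control sgRNA (SE 0.103, adjusted p = 0.00915 in edgeR's test) and 0.35 with Cd4 sgRNA (SE 0.102, adjusted p = 0.0533 in edgeR's test). With Cd4 sgRNA it was called in 4 of 10 other ways to process the counts, among them DESeq2 (adjusted p = 0.0141), and Hspa2 in 2. Transcripts of other genes, mainly a processed copy named Gm15459 that the count table does not list, shared 71.0% of the 66-base windows of Hspa8, so its level depends on how the authors' counting placed such reads. Hspa2 (chr12:76403812-76406938), best known from spermatogenesis, was at 4.82 and 3.78 CPM in wild type, 9.83 and 15.0 CPM with control sgRNA, and 7.60 and 6.44 CPM with Cd4 sgRNA. The groups again kept apart in this order, although the control sgRNA replicates differed from each other by more than the other groups did. Its log2 fold change was 1.51 with control sgRNA (SE 0.252, adjusted p = 0.00836 in edgeR's test) and 0.69 with Cd4 sgRNA (SE 0.255, adjusted p = 0.0968 in edgeR's test). Between the TETact-v3 groups, Cd4 sgRNA over control sgRNA, it was -0.82 (SE 0.242, adjusted p = 0.135 in edgeR's test). Hspa14, a ribosome-associated HSP70, ran from 94.7 CPM in control sgRNA replicate 2 to 127 CPM in wild type replicate 1. Without wild type replicate 1 or 2, neither Hspa8 nor Hspa2 kept its call with control sgRNA, and edgeR's adjusted p reached 0.100 and 0.0758.

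Of the 6 HSP40 co-chaperones, which stimulate the ATPase of HSP70, Dnajb4 alone passed the threshold. Dnajb4 (chr3:152181580-152210432) was at 7.12 and 7.75 CPM in wild type, 15.3 and 13.4 CPM with control sgRNA, and 20.02 and 21.3 CPM with Cd4 sgRNA. The 3 groups kept apart, and Cd4 sgRNA was the highest. Against wild type the log2 fold change was 0.95 with control sgRNA (SE 0.129, adjusted p = 0.00432 in edgeR's test) and 1.48 with Cd4 sgRNA (SE 0.131, adjusted p = 0.00155 in edgeR's test). Between the TETact-v3 groups it was 0.53 (SE 0.124, adjusted p = 0.109 in edgeR's test), the smallest adjusted p among the members in that comparison. The call with control sgRNA was lost without wild type replicate 1 (adjusted p = 0.0672 in edgeR's test). The span of Dnajb4 meets that of Fubp1 over 11 bases in the annotation. Of its 2 annotated promoter windows, 1 held the 2-unit letters. Dnajb1, the HSP40 most often used as a readout of HSF1, was at 68.2 and 69.4 CPM in wild type, 84.4 and 74.2 CPM with control sgRNA, and 75.0 and 84.9 CPM with Cd4 sgRNA. All TETact-v3 libraries of Dnajb1 lay above wild type by a margin smaller than the gap between the replicates of either TETact-v3 group, and it was not called. Dnaja1 and Dnaja2, the type A HSP40 proteins of the cytosol, ranged over the 6 libraries from 133 to 171 CPM and from 195 to 274 CPM. Dnajb6, which keeps polyglutamine proteins from aggregating, ranged from 82.6 to 96.5 CPM, and Dnajb2, which hands HSP70 clients to the proteasome, from 7.82 to 15.3 CPM. None of these 4 was called in any comparison.

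Among the 4 genes that bind HSP70 or exchange its nucleotide, Bag3 rose in both comparisons and Hspbp1 with Cd4 sgRNA. Bag3 (chr7:128523583-128546981), which links HSP70 to selective autophagy, was at 37.6 and 43.8 CPM in wild type, 65.9 and 69.5 CPM with control sgRNA, and 70.7 and 73.7 CPM with Cd4 sgRNA. All 4 TETact-v3 libraries lay above both wild-type libraries. Against wild type the log2 fold change was 0.74 with control sgRNA (SE 0.103, adjusted p = 0.00492 in edgeR's test) and 0.83 with Cd4 sgRNA (SE 0.104, adjusted p = 0.00476 in edgeR's test). The call with control sgRNA was lost without wild type replicate 1 (adjusted p = 0.0652 in edgeR's test), and that with Cd4 sgRNA without wild type replicate 1 or either Cd4 sgRNA library (up to 0.0702). The Bag3 window held the 2-unit letters once, 42 bases after the start. Hspbp1 (chr7:4660515-4685188), an exchange factor that binds the ATPase domain of HSP70, was at 52.9 and 51.7 CPM in wild type, 75.7 and 58.5 CPM with control sgRNA, and 75.6 and 79.7 CPM with Cd4 sgRNA. All TETact-v3 libraries lay above wild type, with control sgRNA replicate 2 the closest to it. Its log2 fold change was 0.57 with Cd4 sgRNA (SE 0.133, adjusted p = 0.0281 in edgeR's test) and 0.36 with control sgRNA (SE 0.132, adjusted p = 0.0858 in edgeR's test). The call with Cd4 sgRNA was lost without either wild-type or either Cd4 sgRNA library, with an adjusted p of up to 0.191 in edgeR's test. Bag1 ranged from 224 to 255 CPM, and St13, the HSP70-binding protein Hip, from 261 to 310 CPM, and neither was called.

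In the HSP90 branch the co-chaperone Fkbp4 rose, while neither HSP90 gene passed the threshold. Hsp90aa1 (chr12:110691036-110696395), the stress-inducible cytosolic HSP90, was at 797 and 773 CPM in wild type, 1281 and 871 CPM with control sgRNA, and 1168 and 1228 CPM with Cd4 sgRNA. The 2 Cd4 sgRNA libraries lay close together, and the control sgRNA replicates lay on both sides of them. The log2 fold change of Hsp90aa1 was 0.61 with Cd4 sgRNA (SE 0.177, adjusted p = 0.0517 in edgeR's test) and 0.46 with control sgRNA (SE 0.177, adjusted p = 0.0983 in edgeR's test). DESeq2 placed both under the threshold, with adjusted p values of 0.00585 and 0.0427. Copies such as Gm12346, which is not listed in the count table, shared 54.9% of the 66-base windows of Hsp90aa1. Hsp90ab1 (chr17:45567778-45573261), its constitutive counterpart, was at 4989 and 4815 CPM in wild type, 5493 and 5625 CPM with control sgRNA, and 4982 and 4762 CPM with Cd4 sgRNA. Only the control sgRNA libraries lay apart, above the other 4, with a log2 fold change of 0.18 against wild type (SE 0.0904, adjusted p = 0.173 in edgeR's test). Fkbp4 (chr6:128430103-128438656), the immunophilin FKBP52 that serves steroid receptors, was at 519 and 506 CPM in wild type, 737 and 634 CPM with control sgRNA, and 686 and 718 CPM with Cd4 sgRNA. All TETact-v3 libraries lay above wild type. For Fkbp4 the log2 fold change was 0.42 with control sgRNA (SE 0.102, adjusted p = 0.0260 in edgeR's test) and 0.45 with Cd4 sgRNA (SE 0.102, adjusted p = 0.0250 in edgeR's test). Both calls were lost when any wild-type or Cd4 sgRNA library was left out, where the adjusted p reached 0.172 and 0.201 in edgeR's test. The call of Fkbp4 with control sgRNA was also lost when only the 2 groups compared were fitted (adjusted p = 0.0787 in edgeR's test). The other 5 co-chaperones were not called in any comparison. Stip1, which bridges HSP70 and HSP90, ranged from 624 to 832 CPM, Cdc37, which loads kinases, from 216 to 257 CPM, and Ahsa1, which speeds the HSP90 ATPase, from 161 to 229 CPM. Chordc1 ranged from 97.6 to 139.9 CPM and Ptges3, the p23 protein, from 51.0 to 82.9 CPM. Transcripts of other genes, mainly a copy named Ptges3-ps, shared 21.6% of the 66-base windows of Ptges3. That copy is listed in the count table with up to 14124 counts in a library, against up to 9212 for Ptges3.

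The HSP110 genes, which act as exchange factors for HSP70, were not called in any comparison. Hsph1 was at 229 and 226 CPM in wild type, 361 and 250 CPM with control sgRNA, and 289 and 320 CPM with Cd4 sgRNA, so every TETact-v3 library lay above wild type while the control sgRNA replicates were wider apart than the group means. Hspa4 ranged from 862 to 1156 CPM, with both extremes in TETact-v3 libraries. Hspa4l was at 34.3 and 34.0 CPM in wild type, 37.2 and 53.3 CPM with control sgRNA, and 27.7 and 28.7 CPM with Cd4 sgRNA. The groups of Hspa4l lay apart in opposite directions, control sgRNA above wild type and Cd4 sgRNA below it. With edgeR's test its log2 fold change between the TETact-v3 groups, Cd4 sgRNA over control sgRNA, was -0.68 (SE 0.169, adjusted p = 0.114). On the same scale and in the same test, Dnaja2 differed by 0.34 (SE 0.103, adjusted p = 0.138), Dnajb2 by -0.56 (SE 0.201, adjusted p = 0.161) and Hspb11 by -0.64 (SE 0.212, adjusted p = 0.149). Hspa4l, Dnaja2, Dnajb2 and Hspb11 lay outside the rule for genes given with their tests and were chosen after their values were seen.

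None of the 3 mitochondrial chaperones was called, although Hspd1 and Hspe1 lay just outside the threshold with Cd4 sgRNA. Hspd1 (chr1:55077833-55088243), which encodes HSP60, was at 654 and 645 CPM in wild type, 926 and 718 CPM with control sgRNA, and 875 and 906 CPM with Cd4 sgRNA. Hspe1 (chr1:55088148-55091317), which encodes its lid HSP10, was at 212 and 193 CPM in wild type, 247 and 239 CPM with control sgRNA, and 240 and 263 CPM with Cd4 sgRNA. For both genes every TETact-v3 library lay above both wild-type libraries. The log2 fold change with Cd4 sgRNA was 0.46 for Hspd1 (SE 0.131, adjusted p = 0.0507 in edgeR's test) and 0.31 for Hspe1 (SE 0.0950, adjusted p = 0.0571 in edgeR's test). With control sgRNA it was 0.34 for Hspd1 (SE 0.131, adjusted p = 0.0963 in edgeR's test) and 0.26 for Hspe1 (SE 0.0949, adjusted p = 0.0807 in edgeR's test). Of 10 other ways to process the counts, 6 placed Hspd1 and 4 placed Hspe1 under the threshold with Cd4 sgRNA. The genes share the stretch printed above with its 3-unit letters, their annotated spans overlap by 96 bases, and 37.3% and 33.6% of their 66-base windows were shared with transcripts of other genes. Hspa9, the mitochondrial HSP70, was at 663 and 647 CPM in wild type, 736 and 523 CPM with control sgRNA, and 805 and 847 CPM with Cd4 sgRNA. The Cd4 sgRNA libraries of Hspa9 were the highest, while the control sgRNA replicates lay on both sides of wild type. When control sgRNA replicate 1 or 2 or the whole control sgRNA group was left out of the fit, Hspd1, Hspe1 and Hspa9 were called higher with Cd4 sgRNA.

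Among the small heat shock proteins, Hspb1 was gained and the others were not called. Hspb1 (chr5:135887919-135889563), which encodes the actin-protecting holdase HSP25, was counted 0 and 0 times in wild type, 100 and 239 times with control sgRNA, and 27 and 32 times with Cd4 sgRNA. This corresponds to 0.900 and 2.95 CPM with control sgRNA and 0.824 and 0.723 CPM with Cd4 sgRNA. The gene was thus seen in all 4 TETact-v3 libraries and in neither wild-type library, with control sgRNA replicate 2 above the other 3. Against the mean wild-type floor of 0.102 CPM, set at 3 counts per library, the control sgRNA mean was at least 18.8-fold higher and the Cd4 sgRNA mean at least 7.56-fold higher. For control sgRNA the bound was 8.79-fold with replicate 1 alone and 28.9-fold with replicate 2 alone. Hspb1 passed the filter only through the groups in which it was counted. Its direction against wild type was thus fixed in advance, and its tests add no support. The adjusted p was 0.0109 with control sgRNA and 0.0285 with Cd4 sgRNA in edgeR's test. The latter was 0.0787 with voomLmFit of limma. The call with Cd4 sgRNA was also lost without either wild-type or either Cd4 sgRNA library (adjusted p of up to 0.158 in edgeR's test), and that with control sgRNA without either wild-type library (up to 0.0807 in edgeR's test). A processed copy, Hsp25-ps1, shared 48.9% of the 66-base windows of Hspb1 and is not in the count table. Hspb11, known as the intraflagellar transport protein IFT25, was at 7.47 and 7.80 CPM in wild type, 8.04 and 12.1 CPM with control sgRNA, and 6.41 and 6.51 CPM with Cd4 sgRNA. Cryab, which encodes alpha B-crystallin, and Hspb8, the partner of Bag3 in selective autophagy, remained at or under the floor in every library.

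**Figure D2:**
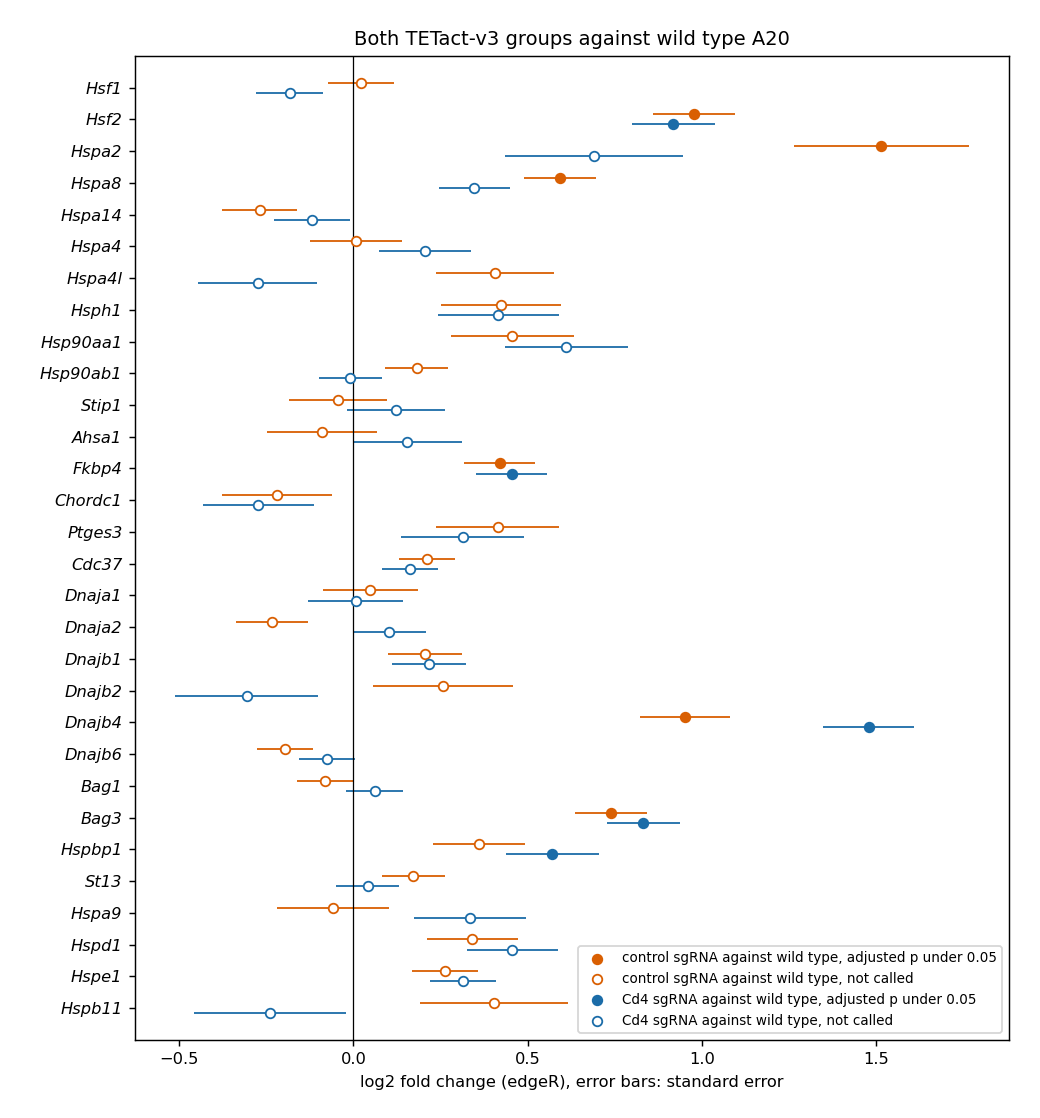
Log2 fold changes (horizontal axis) of 30 tested members against wild type with control sgRNA (orange) and Cd4 sgRNA (blue). Error bars are standard errors, filled circles have an adjusted p under 0.05 in edgeR's test, and Hspb1 is left out because its wild-type counts were 0. The filled circles all lie to the right of 0, from 0.42 (Fkbp4) to 1.51 (Hspa2), and Hsf1 lies at 0.02 and -0.18.

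Between Cd4 sgRNA and control sgRNA cells, 0 members were higher and 0 lower at an adjusted p under 0.05 in edgeR's test, where 0.0161% of all tested genes were higher and 0.0563% lower. An unadjusted p under 0.05 was reached by 8 of the 31 members, against 26% of all tested genes. The median log2 fold change of the members was 0.01, with 16 above and 15 below 0. Both Cd4 sgRNA libraries lay above both control sgRNA libraries for 8 members (29.5% of all tested genes) and below them for 10 (30.2% of all). The voomLmFit test of limma called 0 members and DESeq2 called 3, namely Dnajb4 as higher (adjusted p = 0.0169) and Hspa2 and Hspa4l as lower (adjusted p = 0.0270 and 0.00850) in Cd4 sgRNA cells. The counts in edgeR's test turned on the control sgRNA libraries. With either of these libraries left out, members were called in both directions. The share of all tested genes called in those fits is not given here, so this cannot be read as particular to the members. Fits without 1 of the other 4 libraries called 0.

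**Figure D3:**
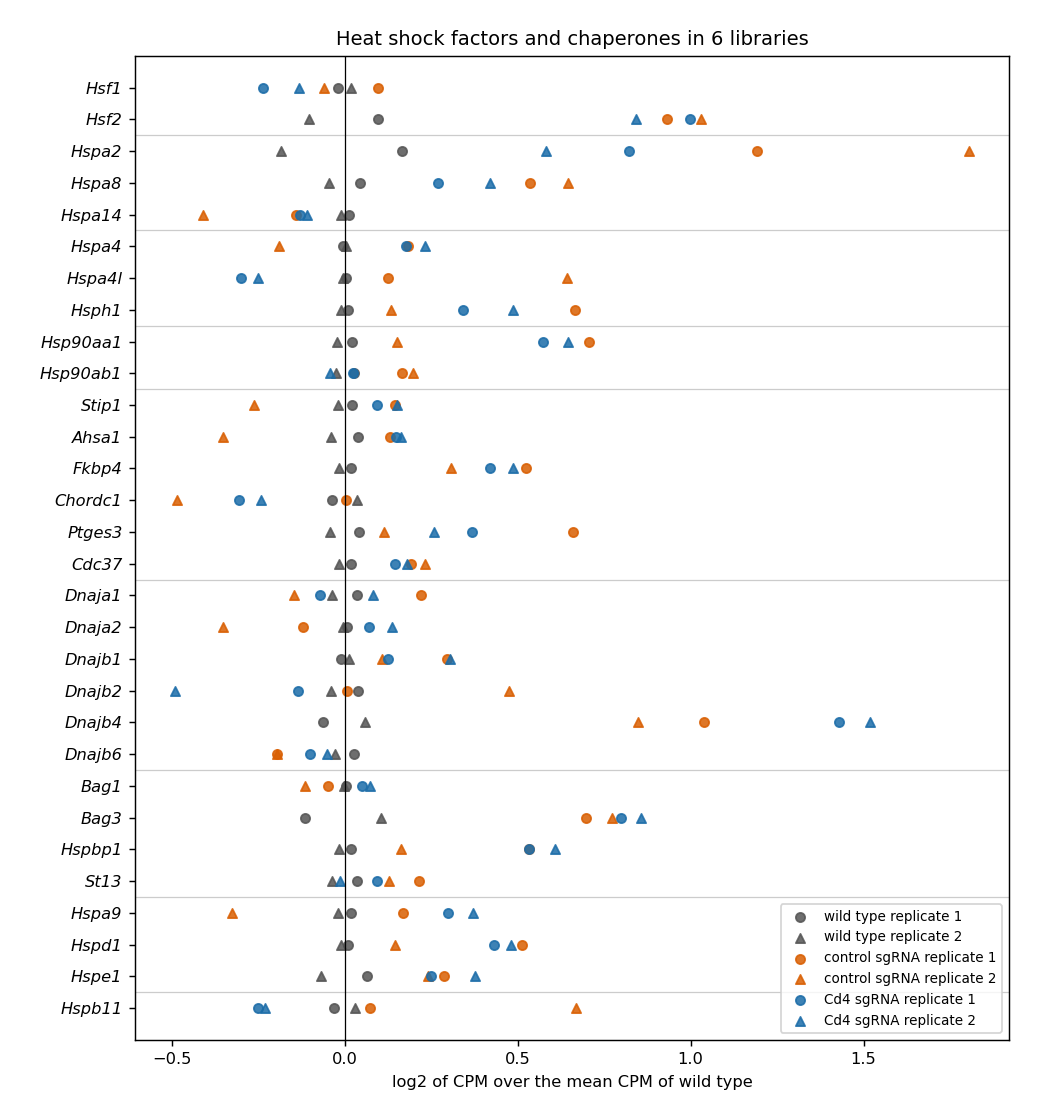
Log2 of each library's CPM over the mean CPM of wild type (horizontal axis) for 30 tested members, ordered by role from heat shock factors (top) to Hspb11 (bottom). Circles are replicate 1 and triangles replicate 2 of wild type (grey), control sgRNA (orange) and Cd4 sgRNA (blue), and Hspb1 is left out because its wild-type counts were 0. The orange circles and triangles lie apart for most members, as for Hsp90aa1 with 1281 and 871 CPM, while the blue pairs lie close together.

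For many members the control sgRNA replicates differed from each other more than the replicates of the other groups did. The median absolute difference between replicates was 0.365 on the log2 scale for the members in control sgRNA cells, 0.0447 in wild type and 0.0722 with Cd4 sgRNA, against 0.275, 0.0839 and 0.0861 over all tested genes. Control sgRNA replicate 2 was more than 1.25-fold below replicate 1 for 11 of the 31 members and more than 1.25-fold above it for 5. The 11 included the HSP90 and HSP110 genes Hsp90aa1 and Hsph1, the HSP90 co-chaperones Ptges3, Chordc1 and Ahsa1, and the mitochondrial Hspa9, with Hsp90aa1 the lowest at -0.56 on the log2 scale. The 5 were Hspb1, Hspa2, Hspb11, Hspa4l and Dnajb2, which had wild-type levels of at most 13.7 CPM per kilobase, and Hspb1 was the farthest at 1.71. In wild type and in Cd4 sgRNA cells, 1 member each (Hspa2 and Dnajb2) passed that limit, downward. Control sgRNA replicate 2 was the highest of the 6 libraries for 9 members and the lowest for 9, while Cd4 sgRNA replicate 2 was the highest for 11 and wild type replicate 2 the lowest for 12. Neither these ranks nor the 1.25-fold limit were counted over all tested genes, so they cannot be read as particular to the members. Control sgRNA replicate 2 was also the library with the highest hypoxia-target sum (1882 CPM) and mitochondrial share (11.5%). The part of these in the members' values was not tested.

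**Figure D4:**
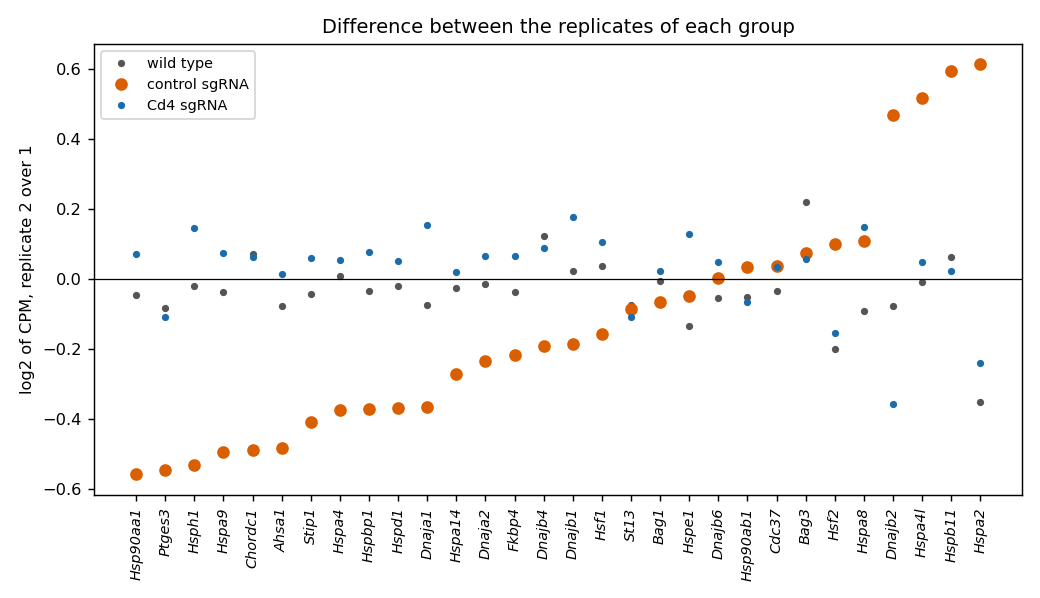
Log2 of CPM in replicate 2 over replicate 1 (vertical axis) for 30 tested members, ordered by the value in control sgRNA cells (large orange points), with wild type (grey) and Cd4 sgRNA (blue). Hspb1, with no wild-type counts, is left out. The orange points run from -0.56 (Hsp90aa1) to 0.61 (Hspa2), and the grey and blue points stay between -0.36 (Dnajb2 with Cd4 sgRNA) and 0.22 (Bag3 in wild type).

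Of 79 other chaperone genes, 71 were tested. With control sgRNA 10 of them (14.1%) were higher and 2 (2.82%) lower than wild type in edgeR's test, against 15.7% and 13.6% of all tested genes, with a median log2 fold change of 0.05. With Cd4 sgRNA 12 (16.9%) were higher and 3 (4.23%) lower, against 11.3% and 11.8% of all tested genes, with a median of 0.12. The 10 and the 12 higher both became 6 with the replicate number as a block. Of the 16 tested chaperones of the endoplasmic reticulum, 6 were higher with Cd4 sgRNA and 3 with control sgRNA, and their median log2 fold changes were 0.43 and 0.11. Dnajc10, a disulphide reductase of the endoplasmic reticulum, was at 219 and 229 CPM in wild type, 338 and 309 CPM with control sgRNA, and 340 and 349 CPM with Cd4 sgRNA. Sdf2l1, a partner of the HSP70 of this compartment, was at 108 and 109 CPM, 205 and 129 CPM, and 216 and 232 CPM in the same order, and its log2 fold change with Cd4 sgRNA was 1.04 (adjusted p = 0.0181 in edgeR's test). That HSP70, Hspa5, was called in neither comparison, at 0.03 with Cd4 sgRNA and -0.49 with control sgRNA on the log2 scale. It lay outside the rule for naming and was added after its values were seen. Pfdn2, a prefoldin subunit, was called higher in both comparisons, as was Pdia4, a protein disulphide isomerase. With control sgRNA, Dnajc21, an HSP40 of ribosome assembly, and Fkbp5, the relative of Fkbp4, were also higher, at 0.64 and 0.42 on the log2 scale, and Unc45a, a myosin chaperone, fell by 0.48. Ier5, an early response gene known to act on HSF1, was at 131 and 134 CPM in wild type, 79.4 and 107 CPM with control sgRNA, and 76.4 and 75.3 CPM with Cd4 sgRNA. It was lower than wild type in all 4 TETact-v3 libraries and was called in both comparisons (adjusted p = 0.0435 and 0.0141 in edgeR's test). Hsbp1, a small protein that binds HSF1 trimers, fell by 0.81 with Cd4 sgRNA (adjusted p = 0.0199 in edgeR's test), and Sugt1 fell by 0.34 (adjusted p = 0.0448 in edgeR's test). Between the TETact-v3 groups edgeR called 0 of the 71, voomLmFit 0 and DESeq2 3 as higher and 2 as lower, with 13 at an unadjusted p under 0.05 in edgeR's test, against 26% of all tested genes. These counts moved with the libraries kept. Leaving out either control sgRNA library gave more calls in each comparison. Leaving out either wild-type library gave none against wild type, and leaving out either Cd4 sgRNA library gave fewer there. The share of all tested genes called in those fits is not given here.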

How the data were processed

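RNA-seq of A20 cells covered 3 groups of 2 biological replicates, grouped by the sample labels. Per the labels and the study's methods, the authors mapped the paired reads to mm10 (GRCm38) with Rsubread, and featureCounts gave counts for each Entrez gene from the RefSeq models built into that package. The deposited values are raw counts, with no normalization, beside an exon length per gene. Strand setting and handling of reads shared between genes are not given in the sources used here. A table of the whole series repeats these counts and was not used.

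Symbols and positions came from RefSeq (GRCm38.p6), which named 25275 identifiers. Identifiers that lacked a symbol or shared one, and genes that were mitochondrial, ribosomal RNA or of type other, were removed, and filterByExpr left 12430 genes. The test was edgeR 4.0.16 in R 4.3.3 (TMM, glmQLFit with robust estimation and glmQLFTest, two-sided, one term per group over all 6 libraries, Benjamini-Hochberg adjustment over all tested genes at 0.05), checked on simulated counts. The simulated counts had the same spread in every group, so the check does not cover the wider spread between the control sgRNA replicates. CPM, standard errors (the log2 fold change over the square root of F) and CPM per kilobase were computed from the counts. With 2 libraries against 2 an exact permutation test cannot go below 0.333, so calls rest on the model's shared spread. Counting floors cover counting error only.

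The members, lists and roles were chosen with earlier results of these data known. Tests are given for members past the threshold without overlap, for Hsf1, Hsf2, Hspa8, both cytosolic HSP90 genes, Hspd1 and Hspe1. They are also given for the 4 others named as chosen later. At most 4 other chaperone genes per direction and comparison are named, and Hspa5 besides. Alternatives were voomLmFit of limma 3.58.1 (the study's test), DESeq2 1.42.0, RLE and unscaled libraries, other filters, only the 2 groups compared, thinned control sgRNA counts, a block for the replicate number, and each library left out. Replicates differed beyond counting noise (chi-square per degree of freedom from 6.82 to 243) and were kept separate. Shared 66-base windows were counted in GENCODE M21 transcripts. A planned comparison of protein sequences was not run. The study's DNA methylation data were not used here. The values of 1 listed cell type marker are not reported here.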

Additional observations from a re-analysis of the deposited data

How the results depend on the processing

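The 7 members higher with control sgRNA numbered 6 to 8 under the alternatives that kept all libraries. Those higher with Cd4 sgRNA, 6 as reported, numbered 5 with voomLmFit, 9 with no filter on low counts, 10 with DESeq2, 10 with library size only, 10 with thinned control sgRNA counts and 19 (with 5 lower) when only the 2 groups compared were fitted. Between the TETact-v3 groups DESeq2 called 1 member higher and 2 lower, and no filter on low counts gave 2 lower. Shares of all tested genes called under each setting are not given here, so these counts cannot be read as particular to the members. The other chaperone genes also moved when only the 2 groups compared were fitted, as given below. With the replicate number as a block the members' counts were 7 and 6 higher and 0 lower against wild type and 0 between the TETact-v3 groups, and a block with crossed numbers, chosen after seeing the data, also gave 0. The block changed no call of a member. The labels do not say that a number marks a batch, and replicate differences correlated at -0.032, 0.020 and -0.137 between the groups across genes.

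With 1 library left out, its lone partner is assumed to vary like the other groups. Members higher then ranged from 1 to 21 with control sgRNA (0 to 8 lower) and from 1 to 20 with Cd4 sgRNA (0 to 5 lower), and between the TETact-v3 groups from 0 to 16 higher and 0 to 10 lower. The share of all tested genes called in these fits is not given here, so the ranges cannot be read as particular to the members. Their cause was not tested.

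Of the other chaperone genes, with control sgRNA the 10 higher became 3 with only the 2 groups compared and 6 with the block, and ranged from 0 to 33 with 1 library left out. The 2 lower became 1 with voomLmFit, 4 with DESeq2, 1 with library size only, 4 with no filter and 0 with only the 2 groups, and ranged from 0 to 18. With Cd4 sgRNA the 12 higher became 34 with only the 2 groups and 6 with the block and ranged from 0 to 37, and the 3 lower became 13 with only the 2 groups and ranged from 0 to 11. Between the TETact-v3 groups DESeq2 gave 3 higher and 2 lower, no filter 1 and 1, and leaving out libraries 0 to 30 and 0 to 15.

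Among 17 members, values that kept all libraries held direction and side of the threshold in 471 of 507 cases. These cases include values that were called in neither fit. With 1 library left out a smaller share of values held, and 9 changed sign. Hsp90ab1 changed sign with Cd4 sgRNA against wild type, at 0.03159 with library size only and 0.01257 with thinned counts, and from -0.041 to 0.044 with 1 library left out. So did Hsf1 with control sgRNA (-0.036 to 0.10), and between the TETact-v3 groups Hsf2 (-0.13 to 0.02), Hsp90aa1 (-0.10 to 0.47), Fkbp4 (-0.071 to 0.15), Hspd1 (-0.058 to 0.32) and Hspe1 (-0.012 to 0.12), none of them called as reported. Without wild type replicate 1, Hsf2 was the 1 of 7 calls kept with control sgRNA, and Dnajb4 the 1 of 6 with Cd4 sgRNA. Levels under 0.140 CPM could not be told from 0 in the shallowest library.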
